A study of Mus musculus with 8 samples.

Results

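The 39 genes described here encode the enzymes and transporters that carry glucose carbon from the cell surface to lactate or into the tricarboxylic acid (TCA) cycle, with 4 genes tied to the hypoxia-inducible factor HIF. They were taken by gene symbol from a table of 24909 gene entries. Of the 39, 22 belong to glycolysis with lactate export, 7 to the entry of pyruvate into mitochondria, 6 to the TCA cycle and 4 to the HIF-linked group. RNA was sequenced from ASZ001, a cell line grown from a mouse basal cell carcinoma, in 4 groups of 2 libraries. Cells of every group received doxycycline for 24 h. The control group carried an empty vector, and its label names no vehicle. The other groups carried the doxycycline-inducible c-Fos vector and received DMSO, 5 uM afatinib or 10 uM UO126 for 6 h, so that the doses of the inhibitors differ. Afatinib is an irreversible inhibitor of the ErbB receptor family, and UO126 blocks the kinases MEK1 and MEK2. All libraries come from 1 cell line, and the sources used here do not say whether the lines were clones, which promoter drives c-Fos, whether the replicates were separate cultures, or whether the 6 h lay within the 24 h. The p-values thus rest on how far these libraries spread, and that spread may be technical.

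Glycolysis splits glucose into pyruvate in the cytosol. Pyruvate is then either reduced to lactate and exported, or carried into mitochondria, where the pyruvate dehydrogenase complex turns it into acetyl-CoA for the TCA cycle. Many tumours take up much glucose and release lactate even with oxygen at hand. HIF-1 is a transcription factor that is stabilised when oxygen falls and is known to act on many genes of glycolysis, and c-FOS pairs with JUN proteins to form AP-1.

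The libraries held between 17901974 and 23126048 counts. Fos was at 40.6 and 50.5 CPM (counts scaled to the library total) with the empty vector and between 813 and 1163 CPM in the 6 libraries with the c-Fos vector. It was 0.44 lower on the log2 scale (SE 0.08) with UO126 than with DMSO by edgeR's quasi-likelihood test, with an adjusted p of 0.0015. Krt5, a basal keratinocyte keratin, ranged from 7046 to 8683 CPM over the 8 libraries. It is 1 of 7 markers of keratinocytes and basal cell carcinoma, which did not all stay level. With c-Fos and DMSO against the empty vector, 1 of the 7 was higher and 3 lower at an edgeR adjusted p under 0.05. Of all tested genes, 21.5% were higher and 20.7% lower. The log2 fold changes of the 7 ran from -0.83 to 0.48. The 4 leukocyte markers summed to between 0.13 and 0.243 CPM with the empty vector, and to between 1.14 and 4.06 CPM in the c-Fos libraries, where Csf1r gave most of the sum. Tyrobp and Cd3e were at 0 in all 8 libraries, as were the fibroblast markers Lum and Thy1 and the endothelial marker Kdr. Over the 8 libraries the 6 fibroblast markers summed to between 4.76 and 10.6 CPM, the 3 endothelial markers to between 55.3 and 70.9 and the 4 melanocyte markers to between 40.6 and 65.2. The part of these markers in the results was not tested. The replicates with UO126 differed most from each other, with a chi-square per degree of freedom of 26, against 4.98 to 9.42 in the other groups. The tests pooled the spread over all 4 groups, so they may understate that of the UO126 libraries.

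With c-Fos, transcripts of Pgk1, Eno1 and Pkm from the later steps of glycolysis rose, as did lactate dehydrogenase Ldha and the lactate transporter Slc16a1, while the glucose transporter Slc2a1, hexokinase Hk2, the kinase Pdk2 and 3 of the 4 HIF-linked genes fell. Each inhibitor was tested against DMSO in c-Fos cells: Slc2a1, Pdk2, Bnip3 and Hif1a were higher with either inhibitor, Eno1, Pkm, Ldha and Slc16a1 were lower, and Hk2 fell further. The inhibitor comparisons share the DMSO libraries with the c-Fos comparison, so the values are given side by side and their opposite directions carry no test. Of the 39 genes, 38 had counts high enough to be tested, and all but Eno2 are among them. A gene was called where edgeR's quasi-likelihood test gave a Benjamini-Hochberg adjusted p under 0.05 over the 12879 genes tested. The 4 main comparisons were c-Fos (with DMSO) against empty-vector cells, each inhibitor against DMSO, and afatinib against UO126, and 28 members were called in at least 1 of them. The 10 called in none of the 4 were Aldoa, Car9, Cs, Idh3a, Mpc1, Mpc2, Pdk1, Pdk3, Pfkl and Slc16a3.

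With c-Fos, 12 of the 38 members were called higher and 9 lower, where 21.5% of all tested genes were called higher and 20.7% lower. Afatinib against DMSO called 9 higher and 9 lower, beside 21.2% and 21.5% of all genes. UO126 against DMSO called 9 higher and 7 lower, beside 13.9% and 14.7%. In either direction the members' shares were 55.3%, 47.4% and 42.1%, and those of all genes 42.2%, 42.7% and 28.6%. The shares were close to those of all genes with afatinib, and no margin was tested. The count of members lower with c-Fos was 5 after omission of empty vector replicate 1 and 5 after that of DMSO replicate 1. The count lower with afatinib was 4 without DMSO replicate 2 and 3 without afatinib replicate 2. For UO126, the count higher was 5 without either DMSO replicate, and the count lower was 4 without DMSO replicate 2.

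**Figure D1:**
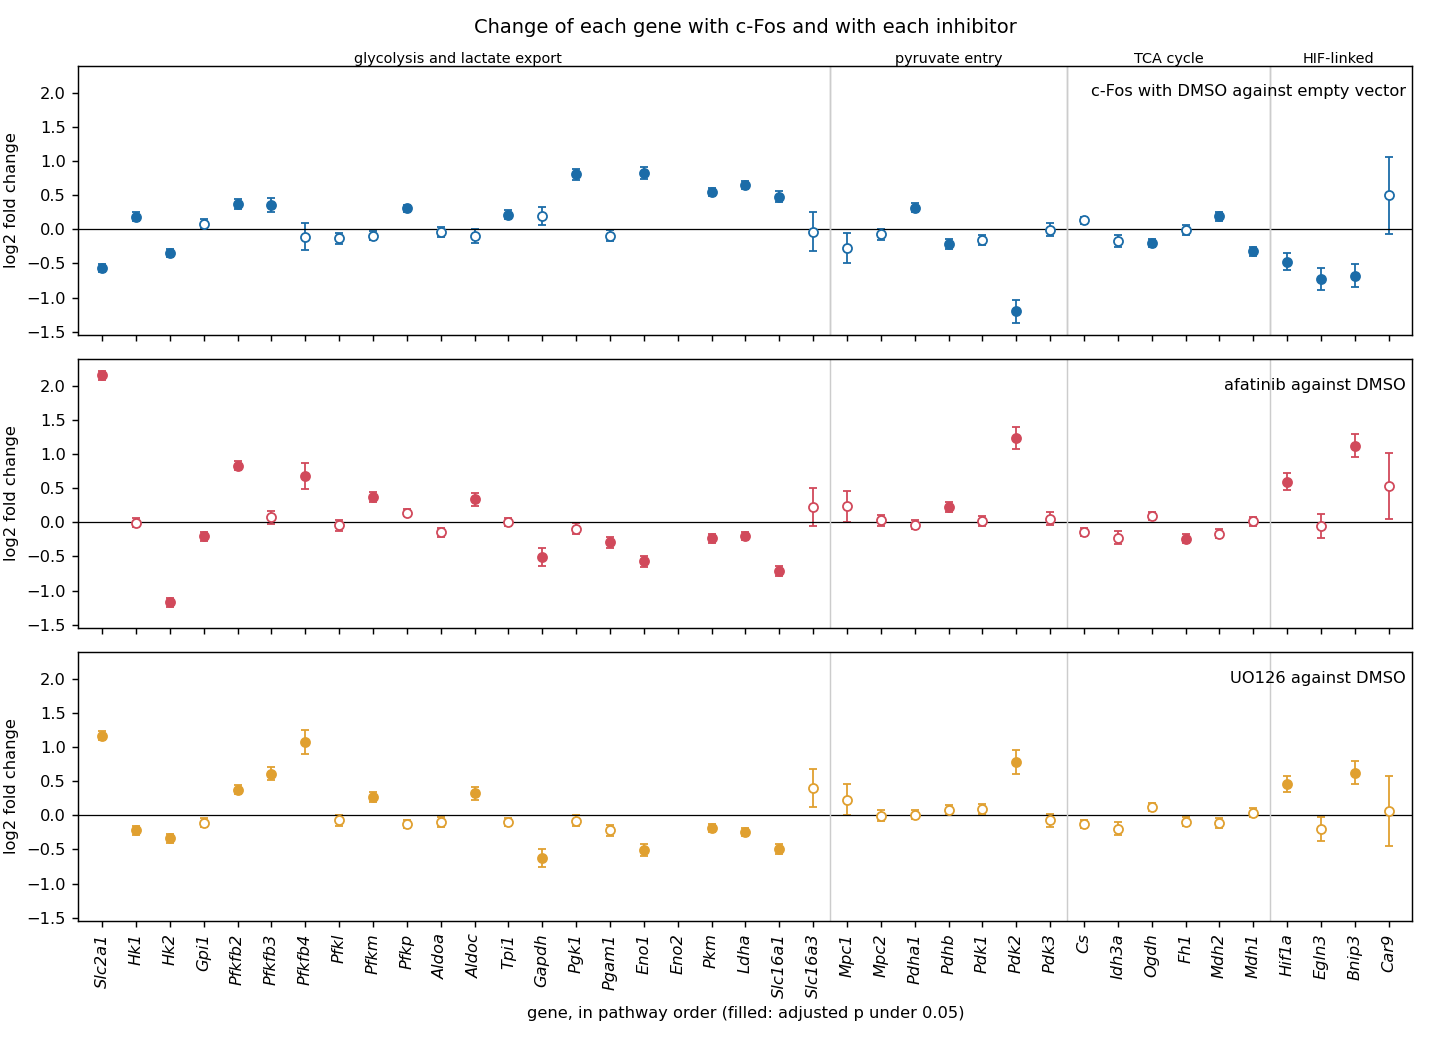
Log2 fold change of each member (y axis) in pathway order (x axis) for c-Fos (with DMSO) against empty-vector cells, afatinib against DMSO and UO126 against DMSO; points are edgeR estimates, bars are 1 SE, and filled points have an adjusted p under 0.05. Slc2a1 has the highest point in the inhibitor panels, at 2.15 and 1.16, and lies at -0.56 in the c-Fos panel. Eno2 was not tested and has no point.

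Levels of different genes are compared as CPM per kilobase of transcript, since a longer transcript gives more reads at the same abundance. With DMSO in c-Fos cells, Mdh2 had the highest mean level of the members, at 470 CPM per kilobase ± 16.8 (SD, n = 2), followed by Pkm at 428 ± 15.9, Ldha at 353 ± 13 and Aldoa at 305 ± 9.28. Slc16a3, a lactate exporter best known from hypoxic cells, was at 0.415 ± 0.0601 CPM per kilobase and Car9 at 0.201 ± 0.0869. Gapdh, an abundant enzyme in most tissues, was listed at 6.16 CPM per kilobase ± 0.119, from 121.5 to 170 counts a library. Gapdh has many processed copies in the mouse genome, and the sources used here do not say how the counting treated reads shared between copies, so its level is uncertain. The same limit applies to other members with copies, among them Eno1, and so to this ranking. The neuronal enolase Eno2 had between 0 and 7 counts in each library.

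**Figure D2:**
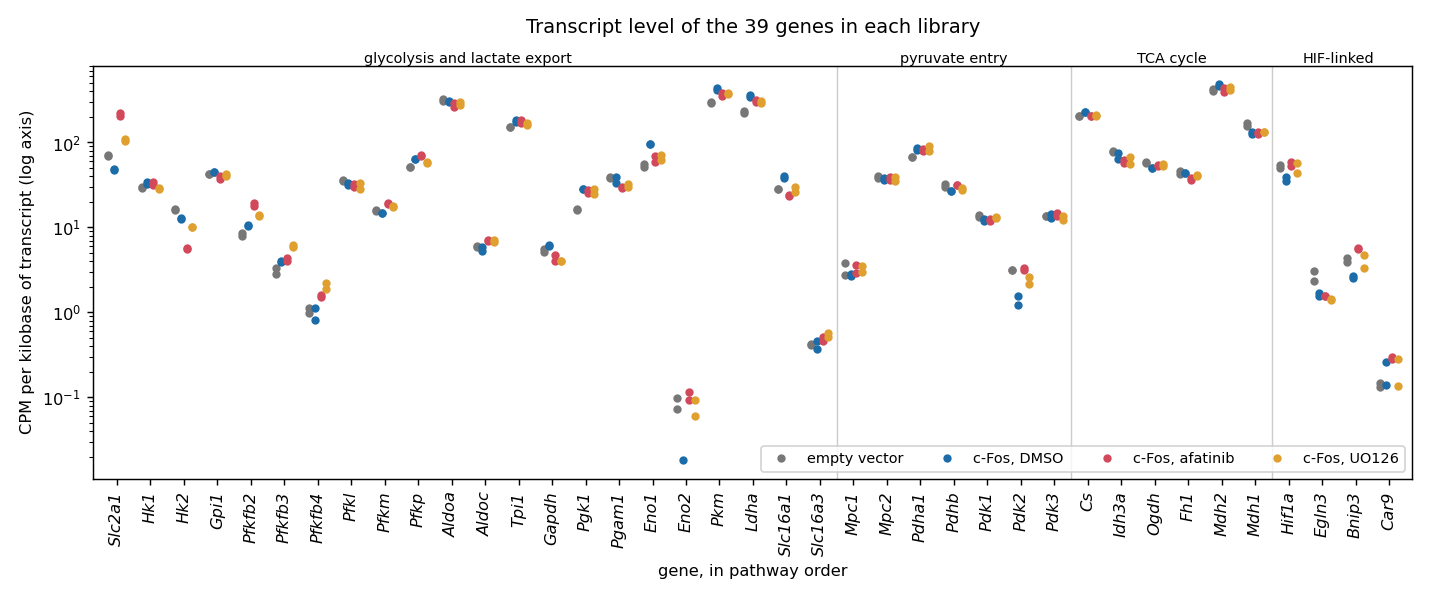
Level of each member in each library, in CPM per kilobase of transcript on a log axis, in pathway order; each point is 1 library and its colour is the group. Members span from under 0.1 (Eno2, whose 0 in DMSO replicate 2 cannot be drawn) to above 400 (Mdh2, Pkm), and the libraries of a group lie close together beside this range.

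Promoter sequence is shown for 8 members, a choice among those that changed with c-Fos. Each is 200 bases of the gene's own strand, 5′ to 3′, from 250 to 51 bases before the start listed by RefSeq on GRCm38.p6; the submitters' processing notes name mm9, so these positions are RefSeq's and not those of the files. Capitals mark ACGTG, the core of the HIF response element, and GCGTG, its variant, on either strand, where they read CACGT and CACGC; the palindrome CACGTG holds ACGTG on both strands. The first 4 are genes that rose with c-Fos, and the others are genes that fell with c-Fos and rose with the inhibitors.
Pgk1 (chrX:106186850-106187049, plus strand): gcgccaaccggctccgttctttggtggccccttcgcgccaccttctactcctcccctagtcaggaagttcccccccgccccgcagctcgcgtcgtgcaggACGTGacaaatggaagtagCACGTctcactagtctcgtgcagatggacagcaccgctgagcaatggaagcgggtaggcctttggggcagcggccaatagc
Eno1 (chr4:150236458-150236657, plus strand): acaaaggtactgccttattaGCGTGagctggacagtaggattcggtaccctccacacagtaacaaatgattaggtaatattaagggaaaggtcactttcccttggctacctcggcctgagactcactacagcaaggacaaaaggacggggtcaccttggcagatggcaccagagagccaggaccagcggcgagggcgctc
Ldha (chr7:46845554-46845753, plus strand): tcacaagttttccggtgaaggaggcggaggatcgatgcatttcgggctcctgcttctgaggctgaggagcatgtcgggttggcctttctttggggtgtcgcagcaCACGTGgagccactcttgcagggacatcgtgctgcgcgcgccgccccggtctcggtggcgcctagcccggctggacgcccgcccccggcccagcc
Slc16a1 (chr3:104638414-104638613, plus strand): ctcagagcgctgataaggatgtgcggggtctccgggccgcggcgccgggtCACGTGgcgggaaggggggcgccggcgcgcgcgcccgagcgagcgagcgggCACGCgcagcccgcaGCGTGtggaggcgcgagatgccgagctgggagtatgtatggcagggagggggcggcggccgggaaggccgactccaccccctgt
Slc2a1 (chr4:119108495-119108694, plus strand): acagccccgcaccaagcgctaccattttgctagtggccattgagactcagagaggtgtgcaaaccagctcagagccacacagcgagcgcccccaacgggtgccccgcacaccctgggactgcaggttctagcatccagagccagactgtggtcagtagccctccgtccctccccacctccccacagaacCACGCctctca
Pdk2 (chr11:95041422-95041621, minus strand): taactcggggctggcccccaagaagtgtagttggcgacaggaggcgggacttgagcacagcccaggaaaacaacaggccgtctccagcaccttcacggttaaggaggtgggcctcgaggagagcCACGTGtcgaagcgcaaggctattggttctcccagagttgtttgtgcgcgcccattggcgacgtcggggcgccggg
Bnip3 (chr7:138909557-138909756, minus strand): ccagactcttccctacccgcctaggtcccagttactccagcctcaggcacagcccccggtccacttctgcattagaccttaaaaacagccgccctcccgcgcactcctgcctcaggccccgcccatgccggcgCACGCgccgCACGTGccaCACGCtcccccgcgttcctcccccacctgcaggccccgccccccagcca
Hif1a (chr12:73907617-73907816, plus strand): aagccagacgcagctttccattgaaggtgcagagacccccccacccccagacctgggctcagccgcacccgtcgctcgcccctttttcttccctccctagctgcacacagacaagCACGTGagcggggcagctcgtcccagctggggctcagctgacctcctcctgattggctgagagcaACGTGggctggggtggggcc
In these windows ACGTG occurred in 17 of the 38 members with a RefSeq entry, 44.7%, beside 14.5% of the 27025 genes with a window and 19.4% of the 9954 tested genes with one, which are 77.3% of those tested. GCGTG occurred in 20 of the 38, 52.6%, beside 25% of all genes and 41.3% of the tested genes. ACGTG or GCGTG occurred in 29 of the 38, 76.3%, beside 34.4% of all genes and 51.6% of the tested genes. All 8 windows shown hold a match, so they do not stand for all members. The AP-1 motif TGANTCA, which reads alike on both strands, occurred in 2 of the 38, 5.3%, beside 6.5% of all genes and 4.7% of the tested genes, and in none of the 8 windows shown. A gene with several listed starts was counted if any window held the motif, so more starts gave more chances to match. The shares were not adjusted for this. Of all 32851 windows, 12.9% held ACGTG, a share per window that is not comparable with the members' share per gene. The window printed is that of the most upstream start. In the Ldha, Slc16a1, Pdk2 and Bnip3 windows ACGTG occurs only within CACGTG. A match is a description of the letters and does not tell which factor, HIF or another, would bind there. No binding was measured. Idh3a has no entry in the table.

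Slc2a1 encodes GLUT1, the main glucose transporter of keratinocytes. It was at 179 and 184 CPM with the empty vector, 123 and 123 CPM with c-Fos and DMSO, 563 and 529 CPM with afatinib, and 266 and 284 CPM with UO126. The 4 groups did not overlap: afatinib was highest, then UO126, then the empty vector, with DMSO lowest. With c-Fos it fell by 0.56 on the log2 scale (SE 0.06, edgeR adjusted p = 9.6e-06). Afatinib raised it 4.44-fold over DMSO (log2 2.15, SE 0.06, adjusted p = 1.1e-10) and UO126 raised it 2.24-fold (log2 1.16, SE 0.06, adjusted p = 6.7e-08). The afatinib level was also 3-fold that of the empty vector (log2 1.59, SE 0.06, adjusted p = 2.8e-10). Afatinib's level exceeded UO126's 1.98-fold (log2 0.99, SE 0.06, adjusted p = 8.4e-07), at doses that differ.

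Hexokinases trap glucose as glucose-6-phosphate, and Hk2 is the inducible form bound to mitochondria in many tumours. Hk2 was at 90.8 and 88 CPM with the empty vector, 71.8 and 68.6 with DMSO, 55.2 and 56.2 with UO126, and 30.7 and 31.5 with afatinib. Every c-Fos library lay below the empty vector, and the order of the groups was empty vector, DMSO, UO126, afatinib, without overlap. Hk2 fell by 0.35 on the log2 scale with c-Fos (SE 0.06, edgeR adjusted p = 0.00073), by a further 1.17 with afatinib (SE 0.07, adjusted p = 3.2e-08) and by 0.33 with UO126 (SE 0.07, adjusted p = 0.002). Hk1, the constitutive form, stayed between 117 and 143 CPM in all libraries. Its calls were small, 0.19 higher with c-Fos (adjusted p = 0.037) and 0.22 lower with UO126 (adjusted p = 0.023), and did not hold without DMSO replicate 2 (adjusted p = 0.24 and 0.23). The first was also lost without empty vector replicate 1 (0.068) or 2 (0.19), and the second without empty vector replicate 2 (0.051) or UO126 replicate 1 (0.081). Per kilobase, Hk2 made up 35.7% ± 0.0071 of the Hk1 and Hk2 sum with the empty vector, 27.7% ± 1.54 with DMSO, 26.1% ± 0.232 with UO126 and 14.6% ± 0.897 with afatinib (SD, n = 2). The share of Hk2 was lowest with afatinib, and shares were not tested.

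Phosphofructokinase, made of the subunits Pfkl, Pfkm and Pfkp, is the committed step of glycolysis. Pfkp, the subunit with the highest level per kilobase here, was at 207 and 208 CPM with the empty vector, 254 and 259 with DMSO, 233 and 238 with UO126, and 287 and 280 with afatinib. All c-Fos libraries lay above the empty vector. The rise with c-Fos was 0.31 on the log2 scale (SE 0.06, edgeR adjusted p = 0.00076), and the value against DMSO was 0.14 with afatinib (adjusted p = 0.057) and -0.13 with UO126 (adjusted p = 0.12). The muscle-type subunit Pfkm was at 41.7 and 42.4 CPM with DMSO, 49.8 and 51.6 with UO126, and 55.3 and 53.3 with afatinib. It rose by 0.37 with afatinib (SE 0.07, adjusted p = 0.00079) and by 0.27 with UO126 (SE 0.07, adjusted p = 0.01); the UO126 call was lost without DMSO replicate 1 (0.062) or 2 (0.054). Pfkl, between 105 and 132 CPM, was called in no comparison. Gpi1, which precedes this step, was 0.21 lower with afatinib (SE 0.07, adjusted p = 0.024), a call lost without either DMSO library (0.12 and 0.11), afatinib replicate 2 (0.33) or empty vector replicate 2 (0.068).

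The Pfkfb enzymes make and break down fructose-2,6-bisphosphate, the strongest activator of phosphofructokinase, and they differed from each other in their response. Pfkfb2 was at 61.9 and 57.4 CPM with the empty vector, 78.3 and 75.7 with DMSO, 101 and 98.8 with UO126, and 131 and 143 with afatinib. The 4 groups did not overlap, with afatinib highest. Pfkfb2 rose with c-Fos by 0.37 (SE 0.07, edgeR adjusted p = 0.001), with afatinib by 0.83 (SE 0.07, adjusted p = 8.5e-07) and with UO126 by 0.38 (SE 0.07, adjusted p = 0.0014), all on the log2 scale. Pfkfb3, the form with the strongest kinase activity, was at 17.3 and 14.5 CPM with the empty vector, 20.2 and 20.7 with DMSO, 30.4 and 32 with UO126, and 22.5 and 20.5 with afatinib. The UO126 libraries stood above all others, and afatinib overlapped DMSO. Its UO126 rise was 1.52-fold (log2 0.61, SE 0.10, adjusted p = 0.00047), while afatinib gave 0.07 (SE 0.10, adjusted p = 0.6). The c-Fos rise of Pfkfb3, 0.36 (SE 0.10, adjusted p = 0.013), was lost without empty vector replicate 2 (0.14) or DMSO replicate 2 (0.073). Pfkfb4 was low, at 3.81 and 2.73 CPM with DMSO, 6.34 and 7.47 with UO126, and 5.36 and 5.13 with afatinib. UO126 raised Pfkfb4 2.1-fold (log2 1.07, SE 0.18, adjusted p = 0.00062) and afatinib 1.6-fold (log2 0.68, SE 0.19, adjusted p = 0.0099, but 0.11 without DMSO replicate 2). The summed level of the 3 genes was 12.3 CPM per kilobase ± 0.72 with the empty vector, 15.5 ± 0.404 with DMSO, 21.8 ± 0.247 with UO126 and 24.5 ± 0.83 with afatinib (SD, n = 2).

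**Figure D3:**
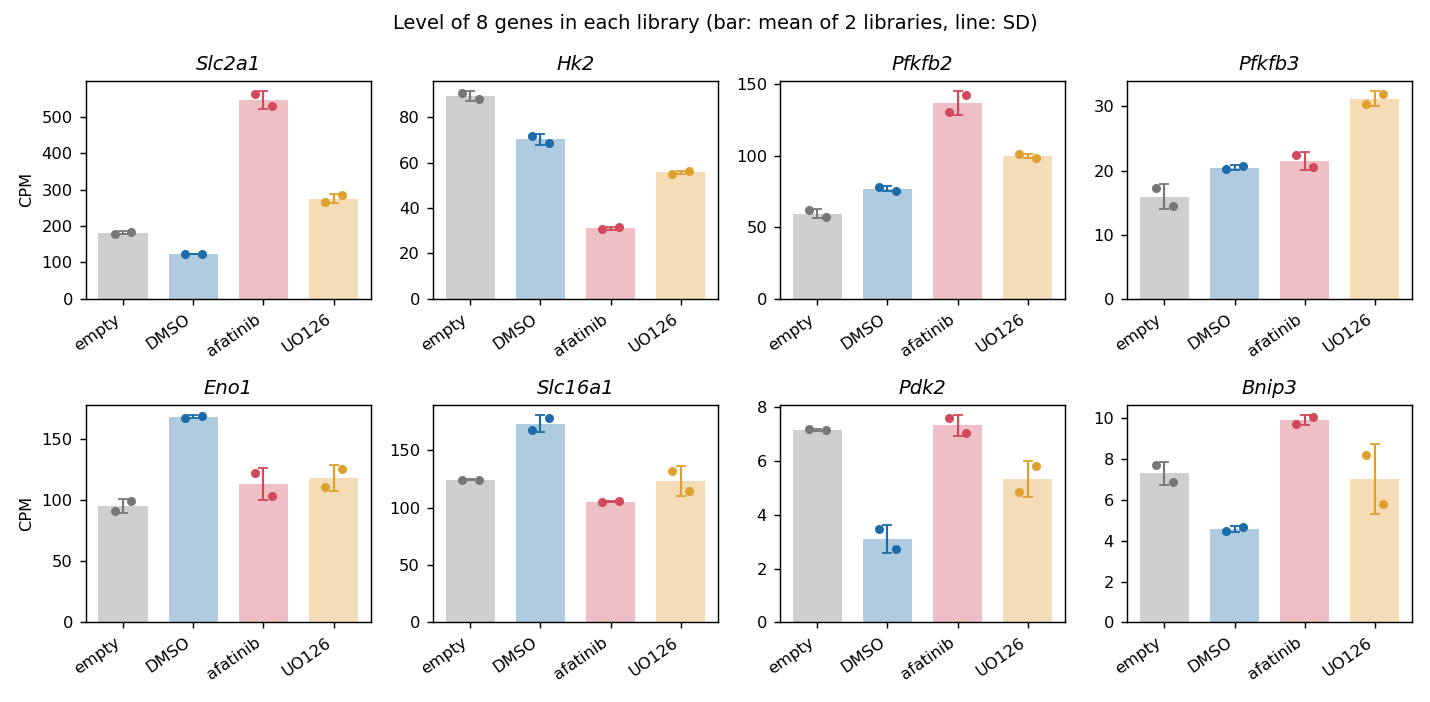
CPM of 8 members in each of the 4 groups; bars are means of 2 libraries, lines are the SD and points are single libraries, with y axes that start at 0. Slc2a1, Pdk2 and Bnip3 have their lowest bar with DMSO in c-Fos cells, Eno1 and Slc16a1 their highest, Hk2 is lowest and Pfkfb2 highest with afatinib, and Pfkfb3 is highest with UO126.

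The middle of glycolysis, from aldolase to triose phosphate isomerase, moved little. Aldoa, which cleaves fructose-1,6-bisphosphate, was between 391 and 482 CPM and was called in none of the 4 comparisons. The less abundant Aldoc was at 15.5 and 16.2 CPM with the empty vector, 14 and 15.6 with DMSO, 19.2 and 17.8 with UO126, and 18.4 and 19 with afatinib. It was called higher with afatinib (0.34, SE 0.10, edgeR adjusted p = 0.013) and UO126 (0.32, SE 0.10, adjusted p = 0.023). Neither Aldoc call held without DMSO replicate 1 (0.11 and 0.17), and the afatinib call was also lost without afatinib replicate 2 (0.061), the UO126 call without UO126 replicate 1 (0.068), and both by DESeq2 (0.057 and 0.096). Tpi1, which interconverts the triose phosphates, was at 242 and 243 CPM with the empty vector and at 274 and 289 with DMSO. Its c-Fos rise of 0.21 (SE 0.06, adjusted p = 0.013) was lost without DMSO replicate 2 (0.12) or empty vector replicate 1 (0.054) or 2 (0.065). Gapdh was called 0.51 lower with afatinib (SE 0.13, adjusted p = 0.0066, but 0.096 without afatinib replicate 2) and 0.63 lower with UO126 (SE 0.13, adjusted p = 0.0029), at the low counts given above.

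Phosphoglycerate kinase Pgk1, which makes the first ATP of glycolysis, rose with c-Fos and stayed up with the inhibitors. It was at 28.9 and 29.9 CPM with the empty vector, 50.9 and 51.6 with DMSO, 45.1 and 51.8 with UO126, and 46.2 and 49.9 with afatinib. All 6 c-Fos libraries lay above both empty vector libraries, whatever the inhibitor. Pgk1 rose 1.74-fold with c-Fos (log2 0.80, SE 0.08, edgeR adjusted p = 5e-06), and its values against DMSO were -0.09 with afatinib (interval of 95%, -0.27 to 0.08, adjusted p = 0.38) and -0.08 with UO126 (-0.26 to 0.09, adjusted p = 0.48). Pgam1, the mutase that follows, was at 60.5 and 71.3 CPM with DMSO, and at 54.9 and 52.7 with afatinib. Its call of 0.29 lower with afatinib (SE 0.08, adjusted p = 0.011) was lost without DMSO replicate 2 (0.25) or afatinib replicate 2 (0.11).

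Enolase Eno1, which makes phosphoenolpyruvate, was at 90.8 and 99.1 CPM with the empty vector, 167 and 169 with DMSO, 111 and 125 with UO126, and 122 and 104 with afatinib. The DMSO libraries were the highest, and the inhibitor libraries lay between them and the empty vector. Eno1 rose 1.77-fold with c-Fos (log2 0.82, SE 0.09, edgeR adjusted p = 6.5e-06), and fell by 0.57 with afatinib (SE 0.09, adjusted p = 0.00015) and by 0.51 with UO126 (SE 0.09, adjusted p = 0.00071). The table also lists Eno1b, a near-identical copy of Eno1, with more counts than Eno1 itself, and the split of reads between them is uncertain. Eno1b was at 267 and 291 CPM with the empty vector, 452 and 461 with DMSO, 328 and 368 with UO126, and 366 and 324 with afatinib. It was called in the same directions, 0.71 higher with c-Fos (SE 0.08, adjusted p = 6e-06), 0.40 lower with afatinib (SE 0.08, adjusted p = 0.00077) and 0.39 lower with UO126 (SE 0.08, adjusted p = 0.0018). Summed, Eno1 and Eno1b stood at 358 and 390 CPM with the empty vector, 619 and 630 with DMSO, 438 and 494 with UO126, and 488 and 428 with afatinib. Copies listed for Aldoa (Aldoart1 and Aldoart2) and Cs (Csl) held between 12.9 and 40.3 CPM and were called in none of the 4 comparisons.

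Pyruvate kinase Pkm closes glycolysis, and its isoforms were counted as 1 gene. Pkm was at 703 and 722 CPM with the empty vector, 1009 and 1063 with DMSO, 898 and 922 with UO126, and 916 and 842 with afatinib. Every c-Fos library was above the empty vector, and those with an inhibitor were below DMSO. Pkm rose 1.46-fold with c-Fos (log2 0.54, SE 0.06, edgeR adjusted p = 1.1e-05). It was called 0.24 lower with afatinib (SE 0.06, adjusted p = 0.0068) and 0.19 lower with UO126 (SE 0.06, adjusted p = 0.035). The afatinib call was lost without DMSO replicate 2 (0.11) or afatinib replicate 2 (0.14), and the UO126 call without each library left out in turn except UO126 replicate 2 (adjusted p between 0.052 and 0.28).

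Lactate dehydrogenase A, Ldha, reduces pyruvate to lactate, and Slc16a1 (MCT1) moves lactate across the membrane. Ldha was at 354 and 374 CPM with the empty vector, 555 and 585 with DMSO, 472 and 490 with UO126, and 511 and 481 with afatinib. As for Pkm, the inhibitor libraries lay between the empty vector and DMSO. Ldha rose 1.57-fold with c-Fos (log2 0.65, SE 0.06, edgeR adjusted p = 2e-06), and was called 0.20 lower with afatinib (SE 0.06, adjusted p = 0.018) and 0.25 lower with UO126 (SE 0.06, adjusted p = 0.0089). These calls were lost without DMSO replicate 2 (0.22 and 0.12), and the afatinib call also without afatinib replicate 2 (0.22). Slc16a1 was at 124 and 124 CPM with the empty vector, 168 and 178 with DMSO, 132 and 114 with UO126, and 105 and 106 with afatinib. Only DMSO stood above the empty vector in both libraries, and afatinib was lowest. Slc16a1 rose by 0.48 with c-Fos (SE 0.07, adjusted p = 0.00017) and fell by 0.72 with afatinib (SE 0.07, adjusted p = 5.3e-06) and by 0.49 with UO126 (SE 0.07, adjusted p = 0.00029). The exporter Slc16a3 stayed between 0.925 and 1.43 CPM and was called in no comparison.

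Over the 21 tested members of glycolysis and lactate export, 10 were called higher and 2 lower with c-Fos, with a median log2 fold change of 0.19 beside -0.0052 over all genes. Of all tested genes, 21.5% were called higher and 20.7% lower with c-Fos. Afatinib gave 5 higher and 8 lower, and UO126 6 higher and 7 lower, with medians of -0.05 and -0.10 beside -0.00028 and 0.0021. The all-gene shares were 21.2% higher and 21.5% lower with afatinib, and 13.9% and 14.7% with UO126. In either direction 57.1%, 61.9% and 61.9% of the 21 were called with c-Fos, afatinib and UO126. The shares of all genes were 42.2%, 42.7% and 28.6%, and no margin was tested. The genes higher with afatinib were Slc2a1, Pfkfb2, Pfkfb4, Pfkm and Aldoc, which act at or before aldolase. Those lower with afatinib were Hk2, Gpi1, Gapdh, Pgam1, Eno1, Pkm, Ldha and Slc16a1, of which 6 act after aldolase. Without afatinib replicate 2 the calls of Gpi1, Gapdh, Pgam1, Pkm and Ldha were lost and 3 were left, and without DMSO replicate 2 those of Gpi1, Pgam1, Pkm and Ldha were lost and 4 were left. With UO126, Slc2a1, Pfkfb2, Pfkfb3, Pfkfb4, Pfkm and Aldoc were higher, and Hk1, Hk2, Gapdh, Eno1, Pkm, Ldha and Slc16a1 were lower. Without DMSO replicate 2 the UO126 calls of Hk1, Pkm and Ldha were lost and 4 were left.

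Entry of pyruvate into mitochondria needs the carrier made of Mpc1 and Mpc2 and the pyruvate dehydrogenase complex, which the Pdk kinases switch off. Pdk2 was at 7.19 and 7.14 CPM with the empty vector, 3.48 and 2.73 with DMSO, 4.87 and 5.81 with UO126, and 7.6 and 7.06 with afatinib. The DMSO libraries were lowest, UO126 lay between, and afatinib overlapped the empty vector. Pdk2 fell by 1.2 with c-Fos (SE 0.16, edgeR adjusted p = 6.3e-05), to 0.435 of the empty vector's level. It rose 2.35-fold with afatinib (log2 1.23, SE 0.16, adjusted p = 5.2e-05) and 1.71-fold with UO126 (log2 0.78, SE 0.17, adjusted p = 0.0043, but 0.063 without DMSO replicate 2). Pdk1 (61.5 to 72.1 CPM) and Pdk3 (24.1 to 29.3 CPM) were called in none of the 4. Pdk2 is the least abundant of the 3 per kilobase: it was 10.4% ± 0.21 of their sum with the empty vector, 5.07% ± 0.938 with DMSO, 8.35% ± 0.715 with UO126 and 11% ± 0.996 with afatinib (SD, n = 2).

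The subunits of the dehydrogenase itself differed. Pdha1, the alpha subunit of its first enzyme, was at 194 and 190 CPM with the empty vector, 235 and 243 with DMSO, 255 and 226 with UO126, and 226 and 240 with afatinib. All c-Fos libraries were above the empty vector, and inhibitor and DMSO libraries overlapped. Pdha1 rose by 0.32 with c-Fos (SE 0.07, edgeR adjusted p = 0.0022). Pdhb, the beta subunit, was at 44.4 and 47.3 CPM with the empty vector, 39.4 and 39.3 with DMSO, and 46 and 46.3 with afatinib. It was called 0.22 lower with c-Fos (SE 0.07, adjusted p = 0.026) and 0.23 higher with afatinib (SE 0.07, adjusted p = 0.021). Leaving out any library of the groups compared ended both Pdhb calls (adjusted p from 0.073 to 0.19, and from 0.053 to 0.078), as did DESeq2 (0.11 and 0.066). The carriers Mpc1 (2.4 to 3.46 CPM) and Mpc2 (29.8 to 33.7 CPM) were called in no comparison. Of the 7 members of this group, 1 was called higher and 2 lower with c-Fos, 2 higher and none lower with afatinib, and 1 higher and none lower with UO126. In either direction these shares were 42.9%, 28.6% and 14.3%, beside 42.2%, 42.7% and 28.6% of all tested genes.

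Of the 6 TCA cycle members, 1 was called higher and 2 lower with c-Fos, and 0 higher and 1 lower with afatinib. In either direction these shares were 50% and 16.7%, beside 42.2% and 42.7% of all tested genes. With afatinib, 4 of the 6 had an unadjusted edgeR p under 0.05. With c-Fos, the cytosolic malate dehydrogenase Mdh1, also part of the malate-aspartate shuttle, fell by 0.32 (SE 0.06, edgeR adjusted p = 0.0014), from 302 and 326 CPM to 242 and 261. Both DMSO libraries were below the empty vector, and the afatinib (260 and 247 CPM) and UO126 (256 and 259 CPM) libraries lay among them. Ogdh, the first enzyme of the oxoglutarate dehydrogenase complex, was called 0.20 lower with c-Fos (SE 0.06, adjusted p = 0.013) and the mitochondrial Mdh2 0.19 higher (SE 0.07, adjusted p = 0.042). The Ogdh call was lost without any of the 4 libraries compared (0.056 to 0.14), and that of Mdh2 without DMSO replicate 2 (0.23) or empty vector replicate 1 (0.18) or 2 (0.069). Fumarase Fh1 was called 0.24 lower with afatinib (SE 0.07, adjusted p = 0.015), a call lost without any of the 4 libraries compared (0.063 to 0.14). Citrate synthase Cs, between 596 and 660 CPM, gave 0.13 with c-Fos (adjusted p = 0.074) and -0.14 with afatinib (adjusted p = 0.051). Idh3a, a subunit of the NAD-dependent isocitrate dehydrogenase, was at 186 and 190 CPM with the empty vector, 154 and 180 with DMSO, 160 and 132 with UO126, and 138 and 147 with afatinib. No comparison of the 4 called it in the main fit. Against DMSO, alternatives called it lower with afatinib without the low-count filter (edgeR adjusted p = 0.012) and with only the libraries compared (0.0074). Mdh2 was called lower with afatinib in the same settings (0.038 and 0.03). Idh3a was also called lower with UO126 without the low-count filter (0.048). It was lower than the empty vector in both inhibitor groups, by 0.40 with afatinib (SE 0.09, adjusted p = 0.0043) and by 0.37 with UO126 (SE 0.09, adjusted p = 0.0088). Those calls against the empty vector were lost without afatinib replicate 1 (0.054) and without empty vector replicate 1 or 2 (0.057 each) or UO126 replicate 2 (0.051). UO126 against DMSO called none of the 6 members by edgeR, where 28.6% of all tested genes were called. There was 1 at an unadjusted p under 0.05, and DESeq2 called 0.

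The HIF-linked group comprises the oxygen-regulated subunit Hif1a, the prolyl hydroxylase Egln3, which marks HIF subunits for breakdown, the mitophagy receptor Bnip3 and the carbonic anhydrase Car9; the last 3 are known HIF targets. Bnip3 was at 7.71 and 6.89 CPM with the empty vector, 4.46 and 4.66 with DMSO, 8.22 and 5.81 with UO126, and 9.74 and 10.1 with afatinib. DMSO was lowest and afatinib highest, while UO126 overlapped the empty vector. Bnip3 fell by 0.68 with c-Fos (SE 0.17, edgeR adjusted p = 0.0059; 0.052 without DMSO replicate 1 and 0.062 without empty vector replicate 1). It rose 2.17-fold with afatinib (log2 1.12, SE 0.17, adjusted p = 0.00012) and 1.54-fold with UO126 (log2 0.62, SE 0.17, adjusted p = 0.016). The UO126 call was lost without DMSO replicate 1 (0.086) or 2 (0.068) or UO126 replicate 1 (0.13).

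Hif1a was at 256 and 234 CPM with the empty vector, 167 and 186 with DMSO, 275 and 209 with UO126, and 254 and 279 with afatinib. DMSO was the lowest group, and the inhibitor libraries overlapped the empty vector. The fall with c-Fos was 0.47 (SE 0.12, edgeR adjusted p = 0.014; 0.12 without DMSO replicate 1 and 0.11 without empty vector replicate 1). Hif1a rose 1.51-fold with afatinib (log2 0.59, SE 0.12, adjusted p = 0.0048) and 1.37-fold with UO126 (log2 0.46, SE 0.12, adjusted p = 0.024; 0.14 without DMSO replicate 1 and 0.058 without DMSO replicate 2). HIF-1 activity is set mainly through protein stability, which was not measured. Egln3 behaved otherwise: it was at 6.32 and 8.11 CPM with the empty vector, 4.14 and 4.55 with DMSO, 3.89 and 3.69 with UO126, and 4.19 and 4.17 with afatinib. It fell by 0.73 with c-Fos (SE 0.16, adjusted p = 0.0025) and gave -0.05 with afatinib (interval -0.43 to 0.32, adjusted p = 0.83) and -0.20 with UO126 (interval -0.57 to 0.18, adjusted p = 0.44). Car9 had between 5 and 12.5 counts in each library and was called in no comparison. Of the 4 members, 0 were higher and 3 lower with c-Fos, 2 higher and none lower with afatinib, and the same numbers with UO126. In either direction these shares were 75%, 50% and 50% of only 4 genes, beside 42.2%, 42.7% and 28.6% of all tested genes.

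The inhibitors were also compared with each other, at 5 uM afatinib and 10 uM UO126, over the same 38 members. Slc2a1, Pfkfb2, Pfkp, Hk1 and Bnip3 were called higher with afatinib, and Hk2 and Pfkfb3 lower, where 7.14% of all genes were called in each direction. Hk2 was 0.84 lower with afatinib than with UO126 (SE 0.07, edgeR adjusted p = 6.6e-06), Pfkfb2 was 0.45 higher (SE 0.07, adjusted p = 0.00081) and Pfkfb3 0.54 lower (SE 0.10, adjusted p = 0.0025). Pfkp was 0.27 higher (SE 0.06, adjusted p = 0.007, but 0.057 without afatinib replicate 1). The Bnip3 difference, 0.50 (SE 0.15, adjusted p = 0.041), was lost by DESeq2 (0.12) and without each library in turn except empty vector replicate 2 and UO126 replicate 1 (0.051 to 0.21). That of Hk1, 0.21 (SE 0.07, adjusted p = 0.048), was lost by DESeq2 (0.065) and without each library in turn except UO126 replicate 2 (0.056 to 0.26). The count of members higher was 3 by DESeq2 and 3 without empty vector replicate 1, either DMSO library or afatinib replicate 2, and 2 without afatinib replicate 1. Upper-quartile scaling gave 4 higher and 3 lower here, and 10 higher and 5 lower for UO126 against DMSO.

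No member of pyruvate entry or the TCA cycle was called between the inhibitors by edgeR. At an unadjusted p under 0.05 there were 2 of 7 and 0 of 6, and DESeq2 called 0 in each group. Pdk2 was 0.46 higher with afatinib (interval 0.14 to 0.77, adjusted p = 0.051) and Slc16a1 0.23 lower (interval -0.39 to -0.07, adjusted p = 0.057). Without UO126 replicate 2 these differences were called (0.021 and 0.0028), as was that of Hif1a without UO126 replicate 1 (0.0029). For Pgk1, Eno1, Pkm and Ldha the intervals of the difference ran from -0.18 to 0.16, -0.25 to 0.12, -0.18 to 0.08 and -0.09 to 0.18.

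**Figure D4:**
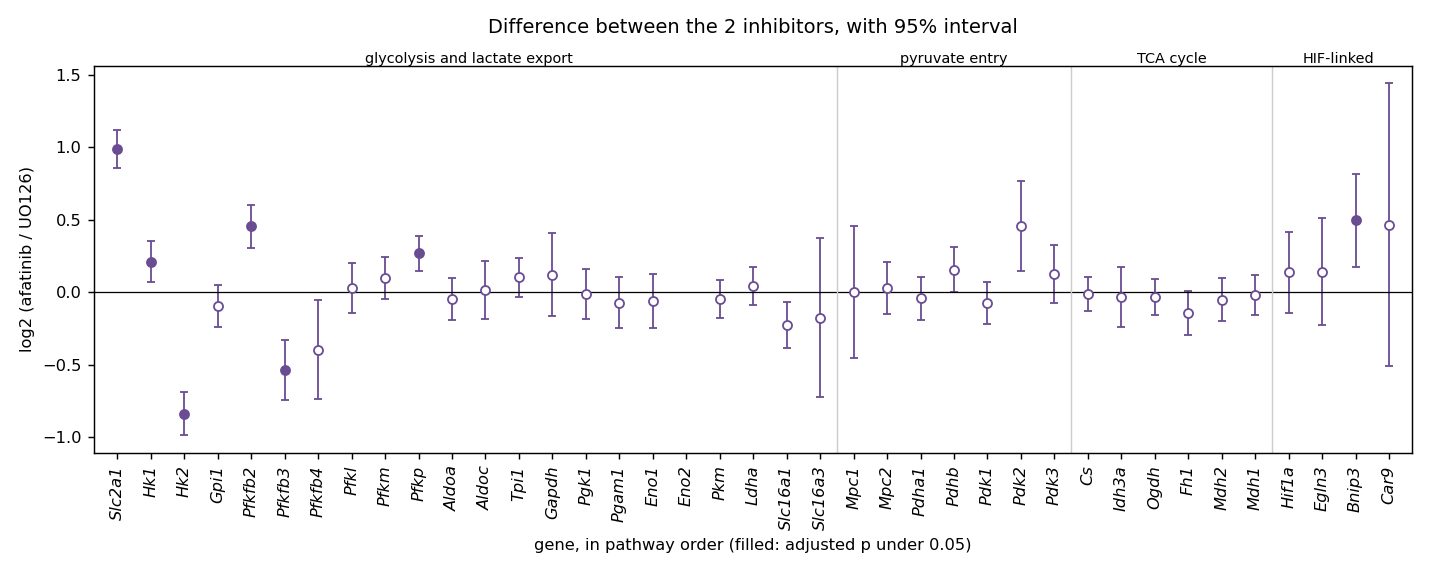
Log2 ratio of afatinib to UO126 (y axis) for each tested member in pathway order (x axis); points are edgeR estimates, bars are 95% intervals, and filled points have an adjusted p under 0.05. Slc2a1 (0.99) and Hk2 (-0.84) lie farthest from 0 in each direction among the called genes, and Pgk1, Eno1, Pkm and Ldha lie near 0.

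Set against the empty vector, the c-Fos groups with an inhibitor had higher Pgk1, Ldha, Pkm and Eno1, and lower Pgam1. With afatinib, 14 members were called higher and 8 lower, where 21.7% and 23.4% of all genes were, and with UO126 10 higher and 7 lower, beside 18.3% and 19.4%. Without afatinib replicate 1 the count higher with afatinib was 9, and without empty vector replicate 2 or afatinib replicate 2 the count lower was 4 or 5. For UO126 the count lower was 3 without empty vector replicate 1 and 2 without empty vector replicate 2. Pgk1 was 0.71 above the empty vector with afatinib and 0.72 with UO126 (SE 0.08 for each, edgeR adjusted p = 1.2e-05 and 1.3e-05). Ldha was 0.45 and 0.40 above (SE 0.06, adjusted p = 5.2e-05 and 0.00016), and Pkm 0.30 and 0.35 above (SE 0.06, adjusted p = 0.0012 and 0.00046). Eno1 was 0.25 above with afatinib (SE 0.09, adjusted p = 0.032) and 0.31 above with UO126 (SE 0.09, adjusted p = 0.012). The afatinib call was lost without empty vector replicate 1 (0.15) or afatinib replicate 1 (0.25), and the UO126 call without empty vector replicate 1 (0.08). Pgam1 was 0.38 below the empty vector with afatinib (SE 0.08, adjusted p = 0.0016) and 0.31 below it with UO126 (SE 0.08, adjusted p = 0.0079), the latter lost without empty vector replicate 1 (0.058) or 2 (0.059). Gapdh was called 0.43 below it with UO126 (SE 0.13, adjusted p = 0.018), a call lost by DESeq2 (0.12) and without any of the 4 libraries compared (0.052 to 0.12). Slc2a1 was 0.60 above the empty vector with UO126 (SE 0.06, adjusted p = 4.4e-06), and Hk2 was 1.52 below it with afatinib (SE 0.07, adjusted p = 9.9e-10) and 0.68 below with UO126 (SE 0.06, adjusted p = 2e-06). Pdk2 with afatinib was close to the empty vector, at 0.03 (SE 0.14, adjusted p = 0.87), while Egln3 was 0.78 and 0.92 below it (SE 0.16 for each, adjusted p = 0.0011 and 0.00041).

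Other genes of these pathways were counted in the same way, and the genes named are taken from the called ones with the largest rise and fall of each list in a comparison, among those whose groups did not overlap and whose higher group reached 5 CPM. Of 17 tested other genes of glycolysis, glucose and lactate, 5 were higher and 3 lower with c-Fos, 2 and 3 with UO126, and 3 and 4 with afatinib. In either direction these shares were 47.1%, 29.4% and 41.2%, close to the 42.2%, 28.6% and 42.7% of all tested genes. Pgm1, a gene of the phosphoglucomutase family, rose from 29.8 and 26.8 CPM with the empty vector to 57.4 and 64.7 with DMSO (log2 1.11, SE 0.09, edgeR adjusted p = 3.4e-07). Which enzyme of the family this symbol stands for was not checked. Slc16a7, the lactate and pyruvate transporter MCT2, was at 27.2 and 23.4 CPM with the empty vector, 6.53 and 8.92 with DMSO, 15.7 and 12 with UO126, and 13.9 and 18.5 with afatinib. It fell by 1.72 with c-Fos (SE 0.20, adjusted p = 0.00014) and rose by 1.07 with afatinib (SE 0.21, adjusted p = 0.0029) and 0.84 with UO126 (SE 0.21, adjusted p = 0.016, but 0.099 without DMSO replicate 1), so that the MCT1 gene Slc16a1 and the MCT2 gene moved in opposite directions. The ADP-dependent glucokinase Adpgk fell with either inhibitor, by 0.69 with afatinib (SE 0.08, adjusted p = 1.4e-05) and 0.36 with UO126 (SE 0.08, adjusted p = 0.0034).

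Of 11 tested other genes of pyruvate entry and anaplerosis, 2 were higher and 4 lower with c-Fos, 3 and 1 with UO126, and 3 and 2 with afatinib. In either direction these shares were 54.5%, 36.4% and 45.5%, beside 42.2%, 28.6% and 42.7% of all tested genes. Pyruvate carboxylase Pcx, which makes oxaloacetate from pyruvate, fell from 18.3 and 18.9 CPM with the empty vector to 9.42 and 10.1 with DMSO (log2 -0.93, SE 0.10, edgeR adjusted p = 1.1e-05). Pck2, the mitochondrial phosphoenolpyruvate carboxykinase, was at 24.4 and 26.6 CPM with the empty vector, 13.3 and 13.6 with DMSO, 33.4 and 35.6 with UO126, and 62.8 and 52.8 with afatinib. Its order of groups was that of Slc2a1, without overlap. Pck2 rose by 2.10 with afatinib (SE 0.10, adjusted p = 7.5e-09) and 1.36 with UO126 (SE 0.10, adjusted p = 9.5e-07). Pdp1, a phosphatase that reactivates pyruvate dehydrogenase, fell by 0.62 with afatinib (SE 0.13, adjusted p = 0.0022) and 0.47 with UO126 (SE 0.13, adjusted p = 0.016). The UO126 call was lost without DMSO replicate 1 (0.06) or 2 (0.11) or UO126 replicate 2 (0.064). Malic enzyme Me2 rose by 0.33 with c-Fos (SE 0.07, adjusted p = 0.0014).

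Of 13 other TCA cycle genes, all tested, 3 were higher and 1 lower with c-Fos, 1 and 0 with UO126, and 1 and 4 with afatinib. In either direction these shares were 30.8%, 7.69% and 38.5%, below the 42.2%, 28.6% and 42.7% of all tested genes. The NADP-dependent cytosolic Idh1 rose by 0.34 with c-Fos (SE 0.07, edgeR adjusted p = 0.0012), by a further 0.41 with afatinib (SE 0.07, adjusted p = 0.00027) and by 0.47 with UO126 (SE 0.07, adjusted p = 0.00019). Idh1 was the 1 gene of the list called higher with either inhibitor, and, being cytosolic, it is not an enzyme of the mitochondrial cycle. Suclg2, a subunit of succinyl-CoA ligase, fell by 0.46 with afatinib (SE 0.08, adjusted p = 0.00038).

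Of 21 tested other genes of the HIF pathway and its targets, 5 were higher and 6 lower with c-Fos, 7 and 4 with UO126, and 9 and 1 with afatinib. In either direction these shares were 52.4%, 52.4% and 47.6%, beside 42.2%, 28.6% and 42.7% of all tested genes. Ddit4, a stress-induced inhibitor of mTORC1, was at 47.4 and 46.3 CPM with the empty vector, 18.6 and 15.6 with DMSO, 50.9 and 52.4 with UO126, and 38.1 and 39.3 with afatinib. DMSO was lowest, and UO126 stood above afatinib. Ddit4 fell by 1.45 with c-Fos (SE 0.09, edgeR adjusted p = 2.7e-08) and rose by 1.59 with UO126 (SE 0.09, adjusted p = 7.1e-08). Ndrg1 was at 45.1 and 45.1 CPM with the empty vector, 67.8 and 59 with DMSO, and 181 and 175 with afatinib, a rise of 1.49 over DMSO (SE 0.07, adjusted p = 7.6e-09). Against the empty vector, Ndrg1 was 1.98 higher with afatinib and 1.81 higher with UO126 (SE 0.07 for each, adjusted p = 1.8e-10 and 6e-10). Ak4, a mitochondrial adenylate kinase, moved opposite to Ddit4. It rose from 6.23 and 6.22 CPM to 13.8 and 12.5 with c-Fos (log2 1.08, SE 0.12, adjusted p = 7.5e-06). It fell by 1.00 with afatinib (SE 0.12, adjusted p = 1.5e-05) and 0.79 with UO126 (SE 0.11, adjusted p = 0.00023). Of 8 genes of the pentose phosphate pathway, which branches off at glucose-6-phosphate, 4 were higher and 1 lower with c-Fos, 2 and 2 with UO126, and 2 and 2 with afatinib. Called in either direction were 62.5%, 50% and 50% of the 8, beside 42.2%, 28.6% and 42.7% of all tested genes. Its entry enzyme G6pdx was called 0.25 lower with c-Fos (SE 0.07, adjusted p = 0.011) and 0.31 higher with afatinib (SE 0.07, adjusted p = 0.0022). The first of these was lost without DMSO replicate 2 (0.11) or empty vector replicate 1 (0.078) or 2 (0.068). Rpia, an isomerase of ribose phosphate, was 0.48 higher with c-Fos (SE 0.10, adjusted p = 0.0018) and 0.54 lower with UO126 (SE 0.10, adjusted p = 0.0015).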

How the data were processed

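The authors' deposited table gives expected counts per gene, in steps of 0.5, and the submitters' processing notes name mm9, TopHat, HOMER and DESeq2 without a role or tool version. The sources used here do not say how reads shared between gene copies were split. RNA was extracted with an RNeasy column and libraries were made with an Illumina TruSeq kit, per the labels' protocols, and no strand setting of the counting is stated. From these values, 26 date-like symbols (0.218% to 0.246% of counts) were left out because they name no gene, and the counts were rounded. Genes were filtered with filterByExpr (minimum count 10, total 15), which kept 12879. They were fitted over all 8 libraries with 1 coefficient a group (4 residual degrees of freedom) in edgeR 4.0.16 under R 4.3.3, with TMM scaling and robust quasi-likelihood tests, two-sided. Benjamini-Hochberg adjusted p-values run over all genes tested. SEs are the fold change divided by the root of F, and intervals are at 95%. CPM use TMM-scaled totals, and CPM per kilobase uses the deposited transcript length. Totals of 17901974 to 23126048 counts leave Eno2, Car9 and Slc16a3 with few counts, and their values are imprecise.

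The members and lists were chosen with earlier results of these data known. All 39 members are accounted for; those called in at least 1 of 4 comparisons, or related to such a gene, are given by library. Of each other list, genes are named from the called ones with the largest rise and fall in a comparison, where libraries did not overlap and the higher group reached 5 CPM. Not every gene that this rule selects is reported here. Fos checks the labels. Promoter windows come from RefSeq (GRCm38.p6). Alternatives were DESeq2 1.42.0 (size factors or its Wald test), upper-quartile scaling, other filters, only the libraries compared, a replicate block, no robust estimation, adjusted p under 0.01 and each library left out. The script was tested on simulated counts with 200 of 12879 genes changed, far fewer than were called in the data. Over the 6 comparisons, 6.11% to 9.9% of the simulated calls were false. Of simulated 1.5-fold changes, 67.2% to 85.1% were recovered.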

Additional observations from a re-analysis of the deposited data

How the results depend on the processing

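None of the 101 calls of members over 6 comparisons (the 4 above and each inhibitor group against the empty vector) changed sign under any alternative run, and 56 of them were kept under all of them. At an adjusted p under 0.01, 5 members were lower with afatinib than with DMSO, 5 higher with UO126 than with DMSO, 3 higher with afatinib than with UO126 and 9 higher with afatinib than with the empty vector. The count higher with afatinib than with UO126 was also 3 by DESeq2's Wald test, with only the libraries compared, and without robust estimation. With only the libraries compared, 7 member calls ended, all in comparisons with UO126. For UO126 against DMSO they were Hk1 (edgeR adjusted p = 0.062), Aldoc (0.059) and Pkm (0.077). For afatinib against UO126 they were Hk1 (0.13) and Bnip3 (0.1). For UO126 against the empty vector they were Pfkp (0.055) and Pdk2 (0.058). Leaving out each library in turn gave 8 to 13 higher and 5 to 10 lower with c-Fos, 7 to 10 higher and 3 to 13 lower with afatinib, and 5 to 9 higher and 4 to 7 lower with UO126, each against its comparator above. It gave 2 to 5 higher and 2 to 3 lower for afatinib against UO126, 9 to 15 and 4 to 8 for afatinib against the empty vector, and 8 to 11 and 2 to 7 for UO126 against the empty vector. The cause of these moves was not tested, beyond there being fewer libraries. Same-numbered libraries deviated together little (correlations across genes of -0.21 to 0.12), so the numbers were not taken as pairs. With the replicate number as a block, 10 were higher and 9 lower with c-Fos, 9 and 9 with afatinib, 9 and 6 with UO126, and 4 and 2 for afatinib against UO126. Against the empty vector the block gave 13 and 7 with afatinib and 9 and 7 with UO126. Leaving out the ribosomal RNA precursor Rn45s (1.62% to 4.08% of counts), an alternative chosen after seeing the data, ended no call. With 2 libraries a group the spread is poorly known, and the values of Slc16a3, Car9 and Eno2 rest on few counts.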
